A study of Mus musculus with 43 samples.

Results

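The genes described here are the ligands, latent carriers, receptors and SMAD proteins of the TGF-beta, activin and BMP pathway. They were followed in mouse brown adipocytes and white fat in which the transcription factors Runx1 or Runx2 were overexpressed, altered or labelled as knocked out. Members were all gene symbols of the count tables that match a fixed list of names: Tgfb1 to Tgfb3, Tgfbr1 to Tgfbr3, the inhibin and activin subunits (Inha, Inhba, Inhbb, Inhbc, Inhbe), every Bmp, Gdf and Acvr gene, Bmpr1a, Bmpr1b, Bmpr2, the numbered Smad genes and Ltbp1 to Ltbp4. The rule found 53 of the 26264 genes. They were 3 TGF-beta ligands, 5 activin and inhibin subunits, 10 BMP ligands, 10 GDF ligands, 4 latent TGF-beta binding proteins (LTBPs), 7 type I and 4 type II receptors, 1 coreceptor (Tgfbr3), 8 SMADs and Bmp1, which carries a BMP name but is a protease that cuts procollagen and the BMP antagonist chordin.

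Most ligands of this family bind a pair of type II and type I receptor kinases, which phosphorylate receptor SMADs. Membership here is by name, which does not show that a product, such as that of Gdf15, signals through these receptors. TGF-beta and activin act mainly through Smad2 and Smad3, BMPs through Smad1, Smad5 and Smad9, both with Smad4 as the shared partner, while Smad6 and Smad7 inhibit the pathway. TGF-beta is secreted in a latent complex tied to the matrix by LTBPs and must be released. In fat, TGF-beta and activin are known to hold back adipocyte differentiation, and several BMPs to favour commitment to the adipocyte lineage and the brown programme.

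RNA sequencing gave 43 libraries in 15 groups, in 6 count tables. A cell line labelled BAT, brown preadipocytes differentiated into mature brown adipocytes, carried overexpressed Runx1 (OE Runx1), overexpressed Runx2 (OE Runx2) or the control labelled OEV with a WT genotype (3 libraries each). In a separate experiment the same line was a knock-out control (WT), Knock out Runx1, Knock out Runx2 or Double knock out (3 each), and a further one carried Full length Runx2 or delete Runx2 IDR (2 each, IDR being the usual abbreviation for an intrinsically disordered region). White adipose tissue titled IWAT, the usual abbreviation for inguinal fat, came from Runx1 flox and Adipoq-cre:Runx1 KO mice and from Runx2 flox and Adipoq-cre:Runx2 KO mice (3 each), and IWAT titled HFD, commonly high-fat diet, from WT and Knock out Runx1 mice (3 each), where no allele or Cre is named. Adipoq-cre acts in adipocytes, so the other cells of the tissue keep the floxed gene. The vector, the way the cells were knocked out, the number of clones, and the strain, age and sex of the mice are not given in the sources used here. No label says whether replicates were separate cultures or animals, so p-values measure only the spread between these libraries.

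Library totals ran from 28092201 to 52171378 counts. The overexpressed genes were at 73.9 CPM (each gene's counts scaled to a common library size) for Runx1 in OE Runx1, against 5.57 in OEV, and at 309 CPM for Runx2 in OE Runx2, against 8.77. Each factor was also called higher in the other's cells, Runx1 at 30.3 CPM in OE Runx2 and Runx2 at 16.8 CPM in OE Runx1. Runx1 and Runx2 mRNA were not called lower in any of the knock-out comparisons. In IWAT, Runx1 was at 21.0 CPM in Adipoq-cre:Runx1 KO and 32.1 in Runx1 flox (edgeR adjusted p = 0.0779). Runx2 was at 4.32 and 9.89 CPM in the Runx2 pair (edgeR adjusted p = 0.254). In the cells, Runx1 was at 5.43 CPM in Knock out Runx1, 4.72 in Double knock out and 5.24 in the knock-out control. Runx2 was at 7.61 CPM in Knock out Runx2, 7.55 in Double knock out and 7.71 in that control. In the HFD groups Runx1 was at 11.7 CPM in Knock out Runx1 and 14.4 in WT. Gene-level counts do not show which part of a transcript the reads cover, and the deleted part is not given. Adipocyte markers summed to at least 3891 CPM in every group, while mature brown markers such as Ucp1 and Cidea summed to 200 to 311 CPM in OEV. In all these bulk samples, fewer cells of a type and less RNA per cell cannot be told apart.

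With either factor overexpressed, brown adipocytes held far more mRNA of activin subunits, of the TGF-beta ligands Tgfb2 and Tgfb3, of several BMP and GDF ligands and of the carrier Ltbp1, while the type II receptor Tgfbr2 and the activin receptors Acvr1b, Acvr1c and Acvr2b were lower. Of the 53 members, 42 passed the filter on low counts. In OE Runx1, 26 of them were called at an adjusted p under 0.05 (18 higher, 8 lower), where 54% of all tested genes were called (28.2% higher, 25.8% lower). In OE Runx2, 32 were called (24 higher, 8 lower), against 60.9% of all tested genes (31.3% higher, 29.6% lower). The members' median log2 fold change was 0.22 and 0.71, beside 0.058 and 0.026 over all tested genes. Gdf6, Bmp8a, Bmp7, Bmp2, Bmp4, Bmpr1b and Gdf7 were at 0 or near it in OEV and passed the filter through overexpression libraries. Such genes could be called higher but hardly lower, so the split of calls and the medians rest partly on the filter. Both comparisons use the same OEV libraries. The share of members called in OE Runx1 was near the background. Groups did not overlap for 28 of the 42 members with Runx1 and 33 with Runx2, against 59.7% and 69.5% of all tested genes.

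**Figure D1:**
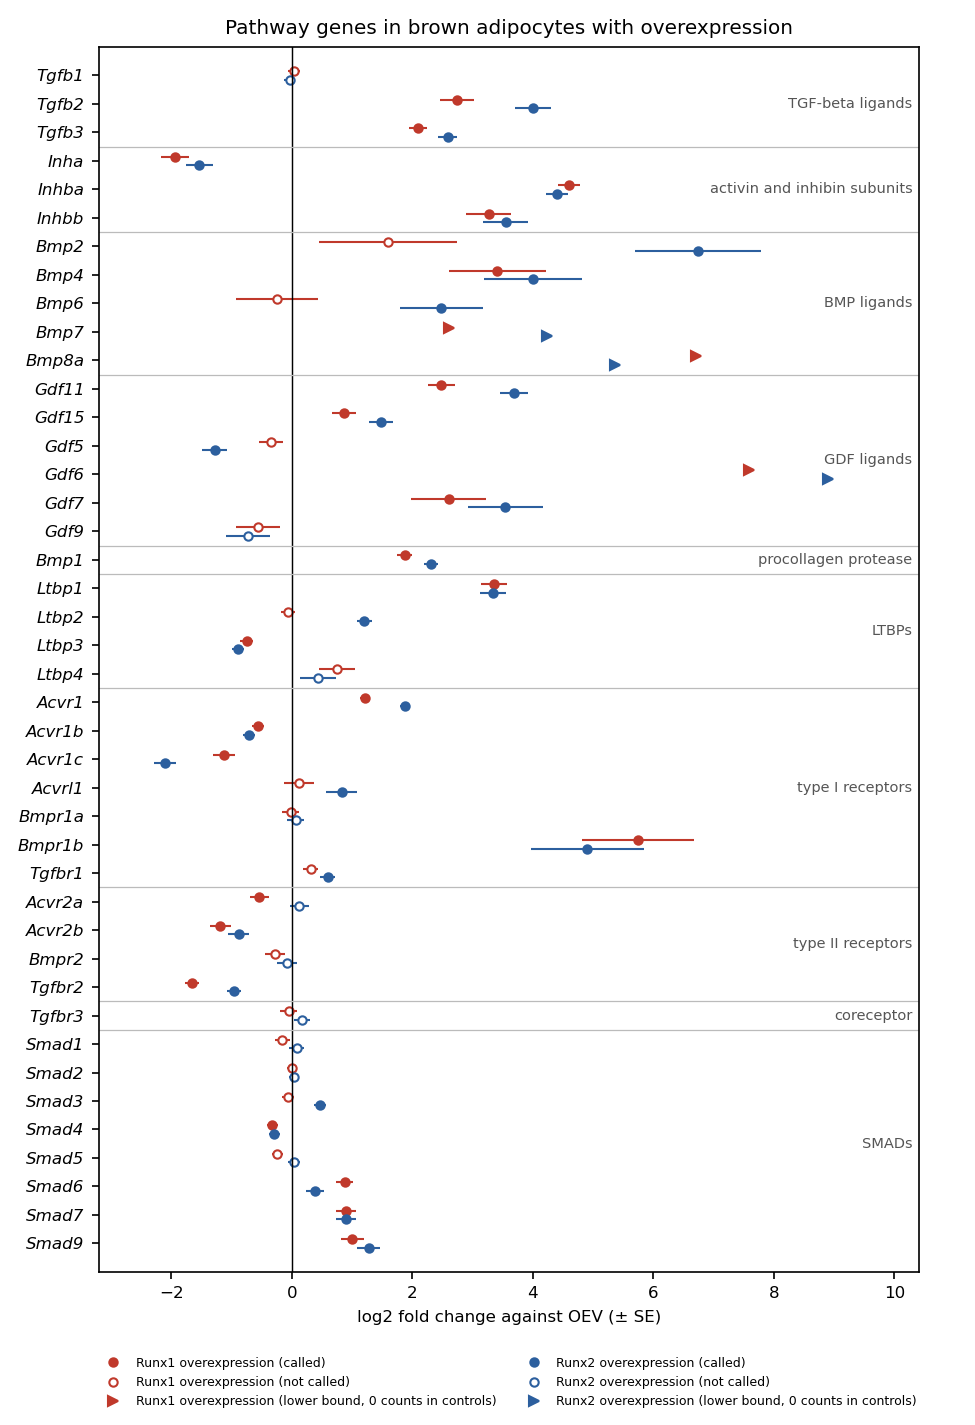
Log2 fold change (± SE) of the 42 tested members in brown adipocytes overexpressing Runx1 (red) or Runx2 (blue) against OEV, grouped by role. Filled points were called, open points were not, and triangles are lower bounds for genes with no counts in OEV. Tgfb1 sits at 0 for both factors, Inhba and Ltbp1 lie above 3, and Tgfbr2 and Acvr1c lie below 0.

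The 3 TGF-beta ligands behaved differently. Tgfb1 was at 76.7, 72.8 and 80.3 CPM in OEV, 85.9, 81.2 and 68.9 in OE Runx1 and 79.3, 72.4 and 72.3 in OE Runx2, with overlapping groups and log2 differences of 0.04 (SE 0.0972) and -0.04 (SE 0.0973). Tgfb2 rose from 1.42, 1.54 and 3.70 CPM to 14.3, 13.8 and 17.5 with Runx1 (log2 2.74, SE 0.287, adjusted p = 1.35e-05) and to 34.9, 37.5 and 36.7 with Runx2 (log2 4.0, SE 0.295, adjusted p = 4.68e-07). All 3 groups were apart for this gene. Tgfb3 rose from 15.5, 9.93 and 13.4 CPM to 58.3, 58.6 and 48.8 with Runx1 and 78.8, 79.9 and 74.3 with Runx2, or log2 2.09 (SE 0.148) and 2.58 (SE 0.15), again with no overlap. OEV replicate 3 held the most Tgfb2 of the OEV libraries, and without it the Tgfb2 rise was log2 3.34 with Runx1 and 4.62 with Runx2.

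Activin subunits rose and the inhibin subunit fell. Inhba, which encodes the subunit of activin A, was at 0.923, 0.805 and 1.05 CPM in OEV, 20.9, 20.8 and 26.3 in OE Runx1 and 16.7, 22.4 and 20.3 in OE Runx2. It rose 24.2-fold with Runx1 (log2 4.60, SE 0.185, adjusted p = 1.91e-08) and 21.2-fold with Runx2 (log2 4.41, SE 0.184, adjusted p = 6.07e-09), and every library of either factor was above every OEV library. Inhbb, the activin B subunit, went from 1.45, 2.42 and 5.45 CPM to 33.6, 30.2 and 27.7 with Runx1 and 40.5, 38.8 and 32.3 with Runx2 (log2 3.27, SE 0.369, and 3.55, SE 0.372). The OEV libraries were uneven for Inhbb but all lay below the others: without OEV replicate 3 the rises were log2 3.96 and 4.27. Inha, whose product turns these subunits into inhibins, the antagonists of activin, moved the other way. Its levels of 10.1, 17.7 and 12.1 CPM in OEV became 2.82, 3.85 and 3.77 with Runx1 and 4.50, 4.16 and 5.12 with Runx2 (log2 -1.94, SE 0.228, and -1.53, SE 0.224). Inhbc and Inhbe, activin subunits known mainly from liver, did not pass the filter.

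**Figure D2:**
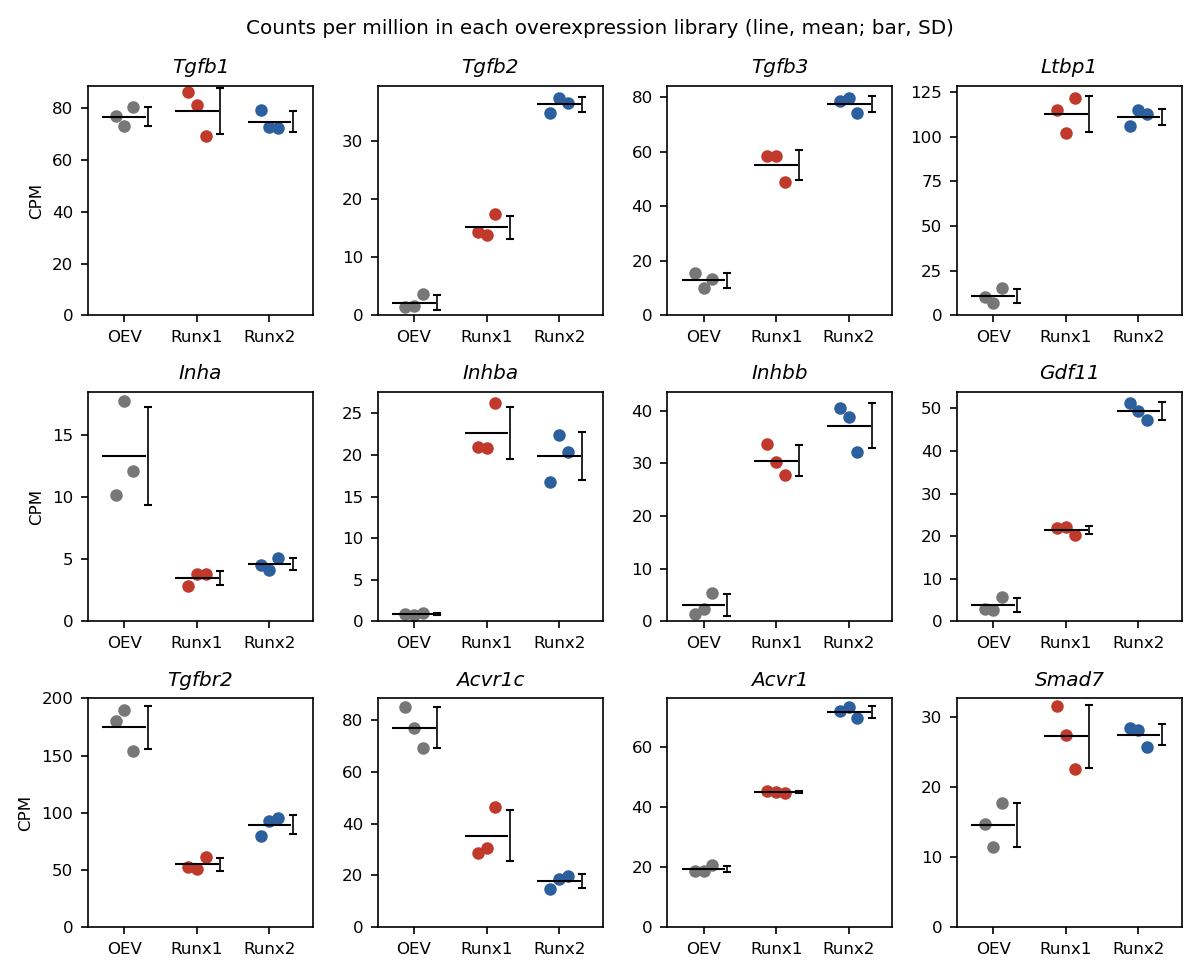
CPM (linear axis from 0) of 12 members in each overexpression library, with OEV in grey, Runx1 in red and Runx2 in blue. Horizontal lines are means and bars are SD over 3 libraries. Tgfb1 overlaps in all groups, Inhba, Inhbb and Ltbp1 are above OEV with both factors, and Tgfb2, Gdf11 and Acvr1 rise in steps from OEV to Runx1 to Runx2.

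Among the GDF ligands, Gdf11, Gdf6, Gdf7 and Gdf15 rose with both factors. Gdf11, an activin-like ligand that signals through Smad2 and Smad3, was at 3.03, 2.68 and 5.68 CPM in OEV, 21.9, 22.3 and 20.3 in OE Runx1 and 51.4, 49.3 and 47.2 in OE Runx2 (log2 2.48, SE 0.223, and 3.68, SE 0.231). The 3 groups did not overlap. Gdf6, a BMP-type ligand of bone and joint, had no counts in OEV but 6.06, 5.77 and 5.45 CPM with Runx1 and 12.1, 16.1 and 14.5 with Runx2. Against a floor of 3 counts over the OEV group it was at least 192.8-fold and at least 476.2-fold higher. Gdf15, a stress-induced hormone that acts on appetite, went from 22.4, 32.7 and 27.7 CPM to 54.1, 61.0 and 36.1 and to 90.5, 73.6 and 67.8 (log2 0.87, SE 0.196, and 1.49, SE 0.198). Gdf7 stayed below 1 CPM in every library and rose by log2 2.6 and 3.54. Gdf5, a ligand known from joints and brown fat, fell with Runx2 from 5.67, 7.99 and 6.75 to 2.89, 3.23 and 2.29 CPM (log2 -1.28, SE 0.207), while with Runx1 it was at log2 -0.35 (SE 0.202, adjusted p = 0.168). Gdf9, the oocyte ligand, was not called (log2 -0.57 and -0.73), and Gdf1, Gdf2, Gdf3 (0 in every library) and Gdf10 did not pass the filter.

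BMP ligands were scarce in OEV, and Bmp2 and Bmp6 were higher with Runx2 than with Runx1. Bmp2, an inducer of bone, was at 0, 0.134 and 0 CPM in OEV, 0.229, 0 and 0.160 in OE Runx1 and 3.92, 5.29 and 5.03 in OE Runx2. Its Runx2 rise (log2 6.74, SE 1.05, adjusted p = 0.000172) rests on near-empty controls and reached log2 10.57 without OEV replicate 2; the Runx1 libraries overlapped OEV. Bmp6 was at 3.13, 2.36 and 2.94 CPM with Runx2 against 0.264, 0.738 and 0.5 in OEV (log2 2.48, SE 0.684), and at 0.184, 0.127 and 0.962 with Runx1, which overlapped OEV. Bmp4, tied to white adipocyte commitment, stood at 0.0659, 0.268 and 0 CPM in OEV, 1.56, 0.810 and 1.10 in OE Runx1 and 1.34, 2.05 and 1.83 in OE Runx2 (log2 3.41, SE 0.810, and 4.0, SE 0.816). These values moved to log2 5.14 and 5.75 without OEV replicate 2 and to 2.75 and 3.36 without OEV replicate 3.

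Bmp7 and Bmp8a, both linked to brown fat, had no counts in OEV. Bmp7 was at 0.518, 0.450 and 0.665 CPM in OE Runx2, at least 18.8-fold higher against the same floor. In OE Runx1 it was at 0, 0.203 and 0.374 CPM, so 1 library matched OEV, and the call was lost without OE Runx1 replicate 3 and without OEV replicate 1 or 3. Bmp8a was at 2.06, 2.89 and 4.62 CPM with Runx1 and 0.845, 1.29 and 1.46 with Runx2, at least 104.4-fold and at least 41.2-fold higher. Bmp8b, a near-identical neighbour whose reads may be split with Bmp8a, did not pass the filter and was at 0.462 CPM or less in every library, so the share of each copy is uncertain. Bmp3, Bmp5, Bmp10 and Bmp15 did not pass the filter either, with Bmp3 at 0 throughout. OE Runx1 replicate 3 alone held Gdf10 (2.83 CPM, with 0 in the other libraries) and 0.321 CPM of Bmp5. Cardiac muscle markers summed to 1870 CPM in that library, 494.6 and 127.4 in OEV replicates 2 and 1, and under 3 in the other 6 libraries; their part in these values was not tested. Without those 3 libraries, which leaves 1 OEV library whose spread is taken from the other groups, 28 members were called in OE Runx1 and 31 in OE Runx2; Inhbb was then at log2 2.55 and 2.77, Tgfb2 at 1.93 and 3.29, and Bmp4 at 8.63 and 9.18.

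Carriers and release factors differed from one another. Ltbp1, which holds latent TGF-beta in the matrix, was at 10.6, 7.15 and 15.1 CPM in OEV, 115, 102 and 121 in OE Runx1 and 106, 115 and 113 in OE Runx2. It rose 10.2-fold and 10.1-fold (log2 3.36 and 3.33, SE 0.211 in each), with overlapping levels for the 2 factors and OEV far below. Ltbp2, which binds matrix but not latent TGF-beta, rose with Runx2 from 76.9, 101 and 77.1 to 209, 201 and 177 CPM (log2 1.20, SE 0.121) and overlapped OEV with Runx1 at 87.8, 76.3 and 80.5 (log2 -0.06, SE 0.12). Ltbp3 fell from 492, 563 and 584 CPM to 340, 323 and 311 and to 332, 273 and 278 (log2 -0.75 and -0.89, SE 0.103 in each). Ltbp4 was not called, with log2 0.75 (adjusted p = 0.053) and 0.43 and with groups that overlapped. Bmp1, the procollagen protease, rose from 67.0, 66.5 and 85.4 CPM to 281, 277 and 243 with Runx1 and 399, 354 and 334 with Runx2 (log2 1.87, SE 0.12, and 2.31, SE 0.122).

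Because Inhba and Ltbp1 rose by similar amounts with both factors, the 250 bases before their RefSeq start sites (GRCm38.p6, plus strand, RefSeq sequence) are shown, with matches to the RUNX core TGTGGT (reverse ACCACA) and the SMAD box CAGACA (reverse TGTCTG) in capitals. Ltbp1 has 2 start sites in RefSeq.
Inhba, chr13:16011601-16011850: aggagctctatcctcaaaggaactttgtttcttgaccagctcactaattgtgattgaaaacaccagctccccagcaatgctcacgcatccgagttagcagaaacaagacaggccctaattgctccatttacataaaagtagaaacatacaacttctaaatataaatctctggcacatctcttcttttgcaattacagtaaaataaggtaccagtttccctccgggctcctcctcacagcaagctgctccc
Ltbp1 first start, chr17:75005279-75005528: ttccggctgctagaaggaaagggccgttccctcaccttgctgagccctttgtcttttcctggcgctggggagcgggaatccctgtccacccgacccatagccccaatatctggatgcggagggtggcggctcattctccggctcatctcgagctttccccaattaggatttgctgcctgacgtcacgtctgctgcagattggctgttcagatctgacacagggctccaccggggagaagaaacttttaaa
Ltbp1 second start, chr17:75178531-75178780: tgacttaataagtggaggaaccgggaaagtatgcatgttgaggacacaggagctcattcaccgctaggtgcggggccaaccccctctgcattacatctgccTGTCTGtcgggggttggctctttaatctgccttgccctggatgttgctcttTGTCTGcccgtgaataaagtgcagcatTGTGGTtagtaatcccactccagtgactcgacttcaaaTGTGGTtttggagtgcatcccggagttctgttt
The second Ltbp1 window held 2 RUNX matches, 71 and 33 bases before the start, and 2 SMAD matches, 149 and 98 bases before it, with no overlap between motifs. The other 2 windows held neither, which says only that these letters are not in these windows. RefSeq windows were found for 39 of the 53 members (50 windows). The RUNX letters were in 3 of them (Bmp15, Inhbe and Ltbp1), against 14.0% of 32851 windows of all genes, and the SMAD letters in 7 (Bmp5, Bmp8b, Bmpr1b, Inhbc, Ltbp1, Tgfb2 and Tgfbr1), against 17.1%. A match is a description and not a binding site, and gene-level counts do not show which Ltbp1 start was used.

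Among type II receptors, Tgfbr2 and Acvr2b were lower with both factors. Tgfbr2, the type II receptor for TGF-beta, was at 180, 190 and 154 CPM in OEV, 53.2, 51.0 and 61.7 in OE Runx1 and 80.2, 93.1 and 95.8 in OE Runx2. It fell by 1.66 on the log2 scale with Runx1 (SE 0.115, adjusted p = 5.69e-07) and by 0.96 with Runx2 (SE 0.112, adjusted p = 1.87e-05), and the 3 groups were apart. Acvr2b, a type II activin receptor, went from 13.2, 12.3 and 12.5 CPM to 4.73, 4.81 and 7.16 and to 6.81, 6.78 and 7.04 (log2 -1.19, SE 0.175, and -0.88, SE 0.174). Acvr2a fell with Runx1, from 29.1, 25.4 and 30.3 to 18.4, 16.2 and 23.7 CPM (log2 -0.54, SE 0.156), but lost this call without OE Runx1 replicate 2, and with Runx2 it overlapped OEV at 26.4, 30.3 and 35.6. Bmpr2, the type II BMP receptor, was not called with either factor (log2 -0.28 and -0.08). Its libraries ranged from 83.8 to 117 CPM in OEV, 77.3 to 99.9 with Runx1 and 75.6 to 112 with Runx2.

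Type I receptors moved in both directions. Acvr1c, an adipocyte receptor for activin B and GDF3 that is known to restrain lipolysis, was at 84.8, 76.7 and 69.3 CPM in OEV, 28.7, 30.5 and 46.5 in OE Runx1 and 14.9, 18.7 and 19.9 in OE Runx2. It fell by 1.13 (SE 0.181) and 2.11 (SE 0.187) on the log2 scale, with 3 separate groups. Acvr1b, the activin A receptor, also fell (log2 -0.56, SE 0.0987, and -0.72, SE 0.099). Acvr1, a BMP type I receptor, rose from 18.9, 18.8 and 20.6 CPM to 45.3, 44.8 and 44.6 with Runx1 and 71.8, 73.2 and 69.4 with Runx2 (log2 1.21, SE 0.0847, and 1.88, SE 0.0858). Bmpr1b, a BMP receptor of cartilage, was at 0, 0.0671 and 0 CPM in OEV and rose to 1.06, 0.608 and 2.14 with Runx1 and 0.763, 0.731 and 0.628 with Runx2. Bmpr1a was not called, at 123, 95.8 and 129 CPM in OEV, 105, 109 and 129 in OE Runx1 and 99.5, 131 and 134 in OE Runx2. Tgfbr1, the TGF-beta type I receptor, rose with Runx2 (38.0, 34.5 and 40.5 to 49.5, 63.2 and 58.5 CPM, log2 0.60, SE 0.125) and missed the threshold with Runx1 (44.6, 42.2 and 53.9 CPM, log2 0.32, adjusted p = 0.0508). Acvrl1, best known from endothelium, rose with Runx2 by log2 0.83 (SE 0.252), a call lost without OE Runx2 replicate 1 or 3. The coreceptor Tgfbr3 overlapped in all groups, at 176 to 198, 162 to 223 and 182 to 234 CPM.

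Among SMAD genes, the inhibitors Smad6 and Smad7 and the BMP SMAD Smad9 rose and Smad4 fell. Smad7, the inhibitory SMAD induced by TGF-beta, rose from 14.8, 11.4 and 17.7 CPM to 31.5, 27.5 and 22.6 and to 28.4, 28.2 and 25.7 (log2 0.89 and 0.91, SE 0.165 in each). Smad6, the inhibitor of BMP signalling, rose from 34.3, 27.2 and 37.9 CPM to 68.9, 63.5 and 49.8 with Runx1 (log2 0.87, SE 0.148) and to 47.5, 40.1 and 42.5 with Runx2 (log2 0.39, SE 0.148). The Smad6 call with Runx2 was marginal (adjusted p = 0.0393) and was lost without OEV replicate 1 or 2 and without any 1 of the OE Runx2 libraries. Smad9, a BMP SMAD, rose by log2 1.00 (SE 0.191) and 1.28 (SE 0.191). Smad3, which carries TGF-beta and activin signals, rose with Runx2 (39.0, 36.1 and 41.3 to 50.7, 58.5 and 52.5 CPM, log2 0.47, SE 0.0989) and overlapped OEV with Runx1 at 35.7, 35.4 and 39.8. Smad4, the shared SMAD, fell slightly (log2 -0.32 and -0.29, SE 0.0913 in each); the Runx1 call was lost without OE Runx1 replicate 2 and the Runx2 call without OEV replicate 1 or 2 or OE Runx2 replicate 1. Smad1, Smad2 and Smad5 were not called with either factor.

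Set directly against OE Runx1, OE Runx2 held more of 15 members and less of 4, where 39.9% of all tested genes were called (18.9% higher, 21% lower) and groups did not overlap for 24 members and 51.3% of all tested genes. The members' median log2 difference was 0.28, beside -0.021 over all tested genes. Bmp2 (log2 5.14, SE 0.903) and Bmp6 (log2 2.73, SE 0.689) differed most, followed by Gdf6 (log2 1.30), Ltbp2 (log2 1.26, SE 0.121), Tgfb2 (log2 1.26, SE 0.255) and Gdf11 (log2 1.20, SE 0.204). Tgfbr2 (log2 0.70), Acvr1 (0.67), Acvr2a (0.66), Smad3 (0.54), Bmp1 (0.44), Acvrl1 (0.71), Gdf15 (0.62), Tgfb3 (0.49) and Smad5 (0.27) were also higher, and Bmp8a (-1.41), Acvr1c (-0.98), Gdf5 (-0.93) and Smad6 (-0.49) lower. Bmp2 was near 0 in OE Runx1 (0.229, 0 and 0.160 CPM) and passed the filter through OE Runx2 libraries. It could thus be called higher but hardly lower, so the split of calls and the median rest partly on the filter. Bmp6 was also low in OE Runx1, at 0.184, 0.127 and 0.962 CPM. Without OE Runx1 replicate 3 the Bmp6 difference was log2 4.14, and without OE Runx1 replicate 1 the Bmp2 difference was 5.88. Calls of Acvrl1, Bmp8a, Gdf15, Smad5, Smad6 and Tgfb3 were lost when 1 library or another was left out. Inhba (log2 -0.19, SE 0.146), Inhbb (0.28, SE 0.323), Ltbp1 (-0.02, SE 0.189) and Smad7 (0.01, SE 0.162) were not called different between the factors.

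Markers of other states moved with these differences. Stromal and fibroblast markers summed to 434 to 1009 CPM in OEV, 1932 to 2270 in OE Runx1 and 6272 to 6954 in OE Runx2, with 5 of 7 tested markers higher for each factor and 0 and 1 lower. Adipocyte markers summed to 8080 to 8714, 7090 to 8760 and 3891 to 4657 CPM, and brown markers to 200 to 311, 23.4 to 49.4 and 22.6 to 32.8. Their part in the member results was not tested.

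Genes around the members moved as well. Of 28 SMAD target genes tested, 19 rose and 3 fell with Runx1 and 22 rose and 2 fell with Runx2, with median log2 1.39 and 1.87. Over all tested genes 28.2% rose and 25.8% fell with Runx1, and 31.3% rose and 29.6% fell with Runx2. Pmepa1, a TGF-beta-induced brake on SMAD signalling, rose by log2 1.51 (SE 0.114) and 2.43 (SE 0.117). The smooth muscle gene Tagln (log2 4.42 and 4.66), the matrix protein Ccn1 (1.86 and 5.06) and Snai2 (2.21 and 3.16) rose with both factors, and the cell cycle inhibitor Cdkn1a fell with both (-1.01 and -0.64). These named genes are only some of the called targets. Over the 28 tested targets, log2 ran from -1.006 to 5.752 with Runx1 and from -1.527 to 5.594 with Runx2. The lowest value with Runx2 thus belonged to a gene other than Cdkn1a. Of 17 secreted antagonists and modulators tested, 9 rose and 4 fell with each factor. Follistatin (Fst), which traps activin, rose with both (log2 3.45 and 3.50, SE 0.266 in each), as did gremlin (Grem1), a BMP trap (log2 1.82, SE 0.514, and 6.90, SE 0.475). Nbl1 rose with both (log2 3.77 and 4.59), while the activin trap Fstl3 (-1.88 and -3.03) and the chordin-like BMP antagonist Chrdl1 (-1.75 and -2.28) fell.

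Of 18 genes that hold or release latent ligand, 10 rose and 1 fell with Runx1 and 15 rose and 2 fell with Runx2 (median log2 1.55 and 2.56), where 54% and 60.9% of all tested genes were called. The proteases Mmp2 (log2 2.01 and 5.97), Mmp14 (2.91 and 4.28) and Plat (3.33 and 4.36) and the integrin Itgb3 (4.39 and 4.67) rose with both factors. The convertase Pcsk6 fell with both (log2 -0.76 and -1.87). Of 10 coreceptors and membrane modulators, 5 rose and 1 fell with Runx1, and 7 rose and 1 fell with Runx2, among them endoglin (Eng, log2 2.18 and 2.64). SMAD regulators, mostly ubiquitin ligases and repressors, went both ways: of 19 tested, 6 rose and 8 fell with Runx1, and 5 rose and 7 fell with Runx2.

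In cells labelled as knocked out for either factor alone, no member was called. In Knock out Runx1 cells 0 of 35 tested members were called by edgeR, where 0.435% of all genes were, and in Knock out Runx2 cells 0 of 35, where 0.184% were. DESeq2 also called 0 in each, and 5 members had an unadjusted p under 0.05 in each. Groups did not overlap for 13 and 9 of the 35 members, against 22.9% and 18.9% of all tested genes. Gdf11 was at 1.22, 0.752 and 1.14 CPM in the knock-out control and 1.67, 2.71 and 2.47 in Knock out Runx1 (log2 1.14, SE 0.328, adjusted p = 0.282). Inhbb was at 2.44, 1.87 and 2.89 CPM and 3.42, 5.12 and 4.81 (log2 0.89, SE 0.256, adjusted p = 0.28). Neither gene overlapped between these groups, yet neither passed the threshold. In Knock out Runx2, Ltbp1 was at 5.13, 4.50 and 5.52 CPM, below the control's 10.9, 6.38 and 8.04 (log2 -0.74, SE 0.21, adjusted p = 0.299).

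Double knock out cells had 7 members called of 35 tested, 5 higher and 2 lower, where 15.3% of all genes were called (8.27% higher, 7.01% lower). The libraries of 14 members did not overlap between groups, against 30.6% of all tested genes. Gdf11 rose to 1.95, 4.02 and 3.90 CPM (log2 1.67, SE 0.326, adjusted p = 0.0054) and Tgfb2 from 0.718, 1.14 and 0.723 to 2.02, 3.07 and 2.40 CPM (log2 1.53, SE 0.297, adjusted p = 0.00503). Every Double knock out library lay above every control library for both. Acvrl1 rose from 2.12, 2.95 and 2.08 to 3.80, 5.47 and 5.60 CPM (log2 1.06), Smad7 from 7.76, 9.42 and 9.58 to 11.6, 18.1 and 18.4 (log2 0.84), and Bmp1 from 51.7, 51.7 and 57.1 to 73.0, 87.9 and 92.1 (log2 0.66). Acvr2b fell from 13.9, 13.2 and 14.3 CPM to 6.84, 7.98 and 7.92 (log2 -0.86), and Smad4 from 150, 132 and 126 to 72.8, 89.7 and 91.0 (log2 -0.69). No group overlapped for these genes.

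All 7 were also called in OE Runx2 with the same sign, or 7 of the 25 members called there and tested here, and 6 of the 7, all but Acvrl1, in OE Runx1, or 6 of 20. Over all genes, 60.7% and 60.6% of those called in Double knock out cells were called with the same sign in OE Runx2 and OE Runx1. These shared genes made up 15.2% of all genes called in OE Runx2 and tested in both experiments, and 17% for OE Runx1. The members' shares on that side were 28% and 30%. The experiments had separate controls. Fitted with the compared groups alone, 1 of the 7 (Acvr2b) was called, and 2.88% of all genes. Stromal markers summed to 875 to 1605 CPM in Double knock out and 372 to 652 in the control (4 of 6 tested higher), and Double knock out replicate 1 stood apart with an adipocyte marker sum of 16240 CPM against 8121 and 8567; their part was not tested. Without that replicate 10 of 35 members were called (28.6%), against 26% of all tested genes. Of 26 SMAD target genes tested, 8 rose and 0 fell, against 8.27% and 7.01% of all tested genes, among them Tgfbi (log2 1.12) and Timp1 (log2 1.84), and Mmp2 rose by log2 1.71.

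In white fat of Adipoq-cre:Runx1 KO mice, 7 of 44 tested members were called, 2 higher and 5 lower, where 7.48% of all genes were (4.45% higher, 3.03% lower). In 16 members the groups were apart, against 31.4% of all tested genes. The members' median log2 fold change was -0.15, beside -0.0037 over all tested genes. Inhbb, abundant in adipocytes, fell from 21.8, 42.3 and 28.5 CPM in Runx1 flox to 10.2, 7.24 and 11.1 (log2 -1.70, SE 0.26, adjusted p = 0.00838). Acvr1c, the receptor for its product, rose from 43.1, 44.5 and 41.4 to 96.6, 70.6 and 64.2 CPM (log2 0.84, SE 0.158, adjusted p = 0.0152). The KO libraries were on one side of all flox libraries for both. Gdf11 rose from 11.7, 7.84 and 6.04 to 17.1, 17.9 and 16.7 CPM (log2 1.02, SE 0.242, adjusted p = 0.0342).

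In the same fat 3 of the 8 SMAD genes and the coreceptor were called lower. Smad6 went from 14.7, 34.9 and 27.9 to 12.7, 6.85 and 9.36 CPM (log2 -1.42, SE 0.337, adjusted p = 0.0413), and Smad3 from 62.4, 93.8 and 74.1 to 36.2, 44.1 and 47.2 (log2 -0.85, SE 0.168, adjusted p = 0.0176). Tgfbr3, which presents TGF-beta2 and also carries inhibin, went from 215, 181 and 180 to 119, 82.4 and 115 CPM (log2 -0.87, SE 0.162, adjusted p = 0.0149), and Smad1 from 48.8, 60.2 and 60.3 to 40.6, 33.6 and 39.5 (log2 -0.57, SE 0.141, adjusted p = 0.0369). No groups overlapped for these 4 genes. The other SMAD genes were not called. Among them Smad5 was higher in every KO library, from 73.7, 76.5 and 71.4 CPM in Runx1 flox to 92.7, 90.7 and 77.2. Smad4 was lower in every one, from 123, 117 and 111 to 97.2, 91.2 and 93.2 CPM. Smad2, Smad7 and Smad9 overlapped. Of the 7 members, Gdf11 had the sign it had in OE Runx1, while Acvr1c, Inhbb and Smad6 had the opposite sign and Smad1, Smad3 and Tgfbr3 were not called there. Over all genes called in this fat, 27.4% were called with the same sign in OE Runx1 and 30.9% with the opposite sign.

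Endothelial markers summed to 970 to 1452 CPM in Runx1 flox and 619 to 882 in Adipoq-cre:Runx1 KO, with 2 of 6 lower and 0 at 0. Skeletal muscle markers summed to 6845 CPM in flox replicate 2 and to 15260 and 7180 in KO replicates 2 and 3, against 15.2 to 219 in the other libraries; the part of either in the member results was not tested. Leaving out those 3 libraries leaves 1 KO library against 2 flox libraries, so that the spread comes from the flox pair alone and the lone KO library is assumed to vary like it. The log2 fold changes were then -1.30 for Inhbb, 1.19 for Acvr1c, 0.95 for Gdf11, -0.91 for Smad3, -0.73 for Tgfbr3, -0.43 for Smad1 and -0.74 for Smad6, the last down from -1.42. Without KO replicate 2 no member was called (Inhbb log2 -1.53, Acvr1c log2 0.90), where 0.61% of all genes were. Counts fell to 3 without KO replicate 1 and to 4 without flox replicate 2, flox replicate 3 or KO replicate 3. Gdf11, Smad1 and Smad6 lost their calls in each of these fits, and Smad3 also without KO replicate 1. With the replicate block Smad1 and Smad6 lost their calls as well. Among pathway genes that are no members, Thbs1, which activates latent TGF-beta (log2 -1.98, SE 0.192), Thbs2 (-1.39), Fst (-1.40) and the SMAD target Ccn2 (-1.24) fell, while Hey1 (1.09) and Rgma (1.26) rose. Of 20 genes of latency and activation tested, 1 rose and 4 fell, and of 25 SMAD targets 3 rose and 2 fell, where 4.45% of all tested genes rose and 3.03% fell.

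**Figure D3:**
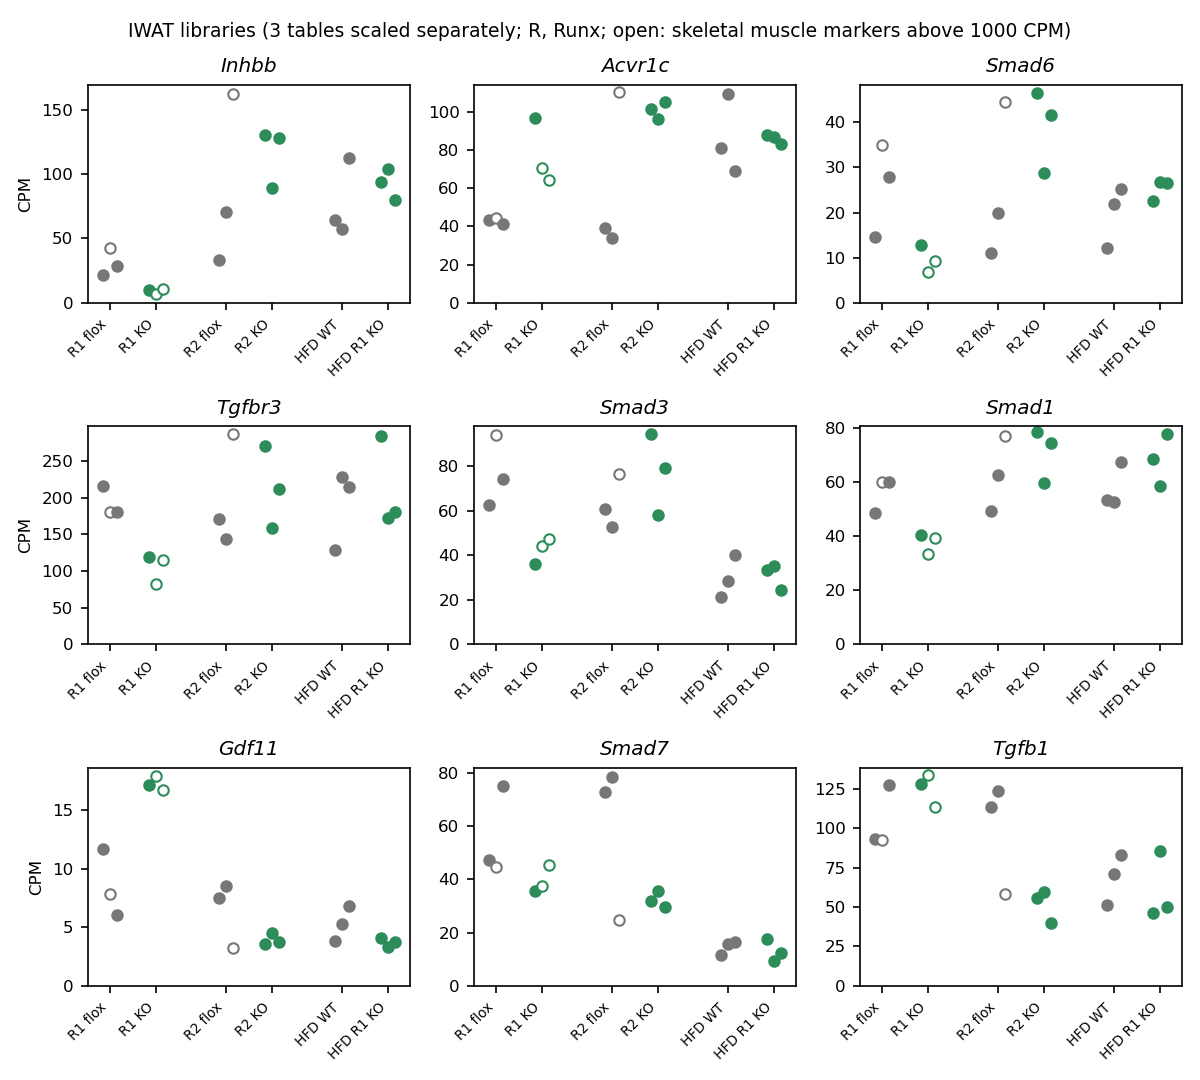
CPM (linear axis from 0) of 9 members in each IWAT library, with controls in grey and knock-outs in green. Open points mark libraries whose skeletal muscle markers summed to more than 1000 CPM, and the 3 tables were scaled separately. In the Runx2 pair the open flox point lies with the KO points for Inhbb, Acvr1c, Smad7 and Tgfb1.

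White fat of Adipoq-cre:Runx2 KO mice had 0 of 40 tested members called by edgeR, where 0% of all genes were called; DESeq2 called 0 members and 3 had an unadjusted p under 0.05. There were 6 members with no overlap between groups, against 24.6% of all tested genes. Runx2 flox replicate 3 stood apart from its group. Its adipocyte markers summed to 37680 CPM, against 14110 and 17190 in the other flox libraries and 38600 to 47270 in KO, its B cell markers to 269 against 1613 and 1598, and its skeletal muscle markers to 7345. Some members followed the same split. Smad7 was at 72.8, 78.6 and 24.7 CPM in flox and 32, 35.7 and 29.5 in KO. Tgfb1 was at 114, 124 and 58.0 and at 55.6, 59.6 and 40.1, and Acvr1c at 39.1, 33.8 and 110 and at 102, 95.9 and 105. In each case the third flox library lay with the KO libraries or beyond them. Inhbb was at 33.2, 70.8 and 162 CPM and at 130, 89.2 and 128. Other members did not follow this split. Bmp2 was at 3.73, 3.74 and 6.41 CPM in flox and 3.58, 2.38 and 3.25 in KO. Tgfb3 was at 16.7, 18.8 and 30.3 CPM and at 24.3, 17.0 and 18.0. Without flox replicate 3, 13 members were called (Acvr1, Acvr1c, Acvrl1, Bmp6, Bmpr1a, Bmpr2, Gdf11, Gdf3, Inhbb, Ltbp3, Smad6, Smad7 and Tgfb1), or 31.7% of the 41 tested, against 40% of all tested genes; Gdf3 passed the filter on low counts only in that fit.

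In IWAT of the HFD groups 0 of 43 tested members were called by edgeR, where 2.11% of all genes were; DESeq2 called 0 and 2 had an unadjusted p under 0.05. Groups did not overlap for 4 members, against 12.3% of all tested genes. Gdf10 was at 24.7, 22.2 and 33.1 CPM in WT and 18.4, 13.3 and 18.4 in Knock out Runx1 (log2 -0.67, SE 0.243, adjusted p = 0.338), and Acvr2b at 7.89, 9.67 and 10.2 and at 13.1, 13.5 and 14.7 (log2 0.57, SE 0.241, adjusted p = 0.503). Inhbb (64.4, 57.6 and 112 CPM against 93.5, 104 and 79.8) and Acvr1c (80.9, 109 and 69.1 against 87.7, 86.7 and 83.0) overlapped. B cell markers summed to 174 to 396 CPM in WT and 2.32 to 3.75 in Knock out Runx1, with 6 of 6 lower. The authors' deposited list for this pair held 403 genes and 0 members.

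Between Full length Runx2 and delete Runx2 IDR cells, 3 of 33 tested members were called, where 3.91% of all genes were (1.51% higher, 2.4% lower). Groups did not overlap for 18 members, against 44.5% of all tested genes. Tgfbr2 fell from 127 and 122 CPM to 66.4 and 87.9 (log2 -0.69, SE 0.0988, adjusted p = 7.97e-05), and the authors' deposited table lists it at log2 -0.693 with an adjusted p of 1.12e-06, the 1 member among its 341 genes. Gdf15 rose from 12.1 and 13.3 to 21.8 and 15.1 CPM (log2 0.54, SE 0.148, adjusted p = 0.0306), and Ltbp2 from 36.3 and 32.4 to 43.1 and 44.6 (log2 0.35, SE 0.101, adjusted p = 0.0366). The pairs of libraries did not overlap for these genes. DESeq2 called Tgfbr2 only. Leaving out 1 of the 4 libraries leaves 1 library in a group, assumed to vary like the other pair. Gdf15 then missed the threshold without Full length Runx2 replicate 1 (log2 0.47) or delete Runx2 IDR replicate 1 (log2 0.25), and Ltbp2 in all 4 cases, at log2 0.27 to 0.44 with adjusted p from 0.0511 to 0.509. Runx2 mRNA itself was at 129 CPM in delete Runx2 IDR and 294 in Full length Runx2, and its part in the member differences was not tested. Among other pathway genes Thbs1 (log2 -0.66), Thbs2 (-0.72) and Fbn1 (-0.77) fell and Id3 (0.66) rose.

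Several members that were high in OE Runx2 were at low levels in Full length Runx2 cells, which held 294 CPM of Runx2. Inhba was at 0.236 and 0.293 CPM, Ltbp1 at 4.48 and 5.40, Tgfb2 at 0.767 and 0.763, Gdf11 at 1.5 and 1.2, Gdf6 at 0 and 0.176, and Bmp2 at 0 in both. The tables were scaled separately and this experiment has no OEV group, so these levels are a description. Stromal markers summed to 108 to 128 CPM and adipocyte markers to 11930 to 12190 CPM in the same cells, and their part was not tested.

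**Figure D4:**
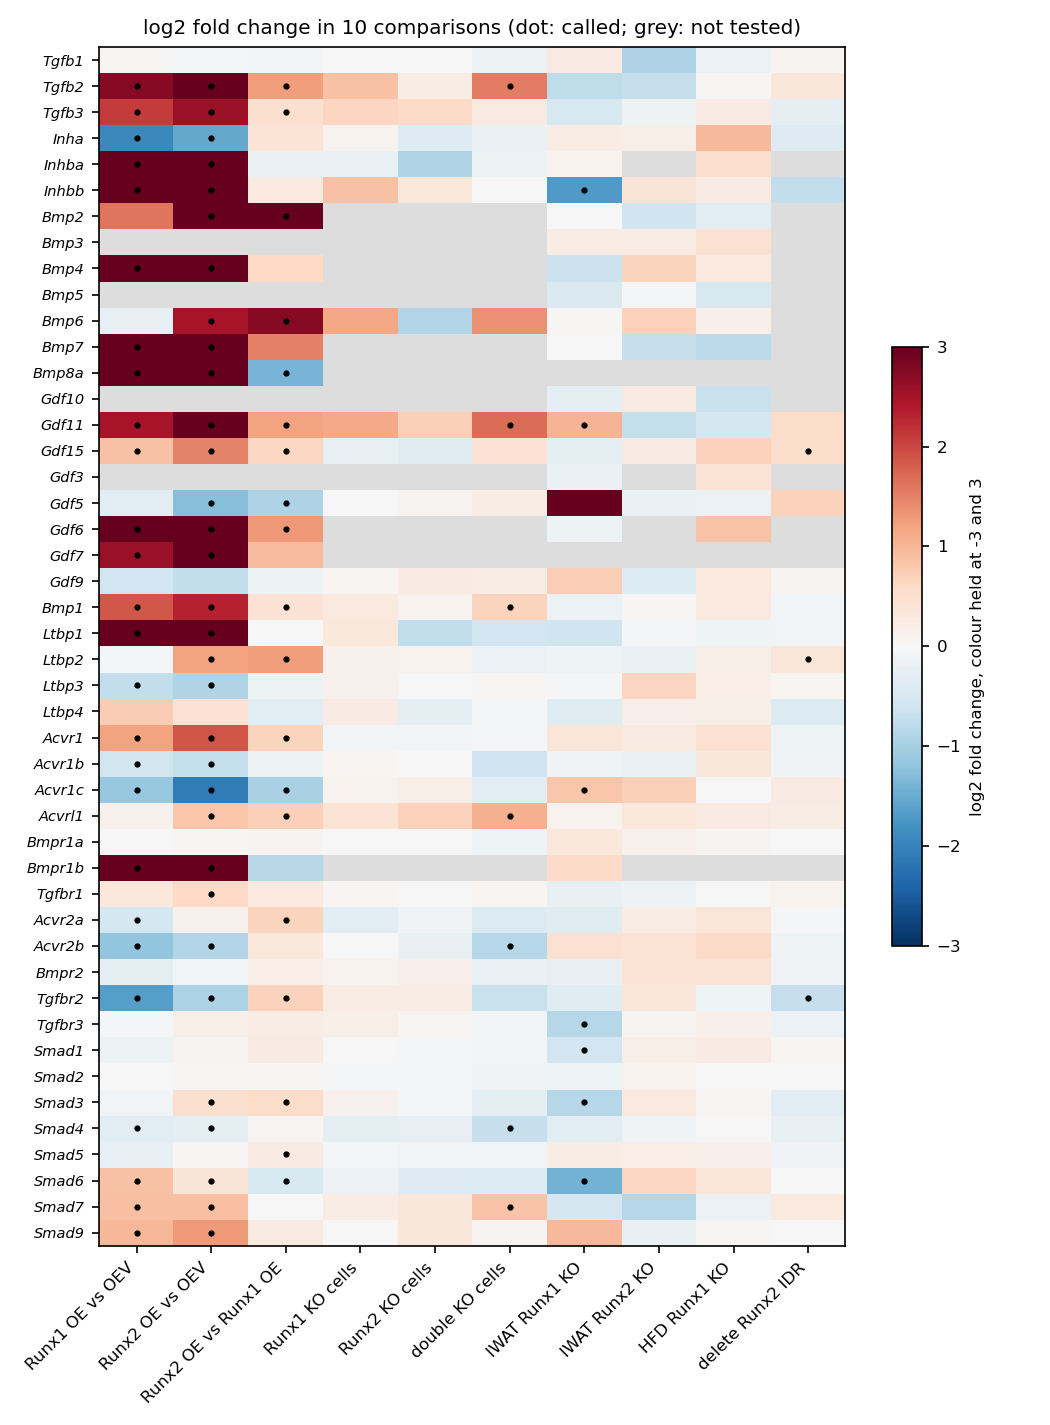
Log2 fold change of the members tested in at least 1 comparison (rows) across the 10 comparisons (columns), from blue (lower) to red (higher), with the colour held at -3 and 3. Dots mark called members and grey marks members not tested. Calls gather in the 3 overexpression columns, with 7 in Double knock out cells, 7 in IWAT Runx1 KO, 3 with delete Runx2 IDR and none in the other 4.

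Across the tables, few members were called outside overexpression. Gdf11 was called higher in OE Runx1, OE Runx2, Double knock out cells and white fat of Adipoq-cre:Runx1 KO mice. It was not called in the other 4 knock-out comparisons or with delete Runx2 IDR. The call in fat was lost without flox replicate 2 or 3 and without any of the KO replicates. The Double knock out call was lost with the compared groups alone. In the IWAT Runx2 pair Gdf11 was at 7.53, 8.54 and 3.23 CPM in flox and 3.55, 4.48 and 3.77 in KO. Tgfbr2 was lower in OE Runx1 and OE Runx2 against OEV, and in delete Runx2 IDR against Full length Runx2. In Double knock out cells it was at log2 -0.68 (edgeR adjusted p = 0.0598), with 39.9, 84.0 and 86.7 CPM in replicates 1, 2 and 3. Inhba, with the steepest rise among activin subunits in overexpression, was at log2 -0.19, -0.91 and -0.14 in the knock-out cells, with an adjusted p of 0.76 or more in each. Tgfb1, Smad2, Bmpr1a and Bmpr2 were called in none of the 10 comparisons.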

How the data were processed

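Gene counts were deposited by the authors as 6 tables of raw read counts per gene for 43 libraries. The submitters' processing notes name fastp, STAR, featureCounts and the mm39 build, with no role or version for each. The authors also deposited lists of genes with a log2 fold change, p-value and adjusted p-value for the HFD and IDR comparisons; 10 per-sample columns in those lists were not used. Between 71.1% and 81.9% of values from 1 to 19 were even, so both mates of a pair may have been counted.

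Each table was fitted whole in edgeR 4.0.16 (limma 3.58.1, R 4.3.3): filterByExpr, TMM, robust quasi-likelihood fit and test on group means, Benjamini-Hochberg over all tested genes, called at adjusted p under 0.05. SE is the log2 fold change divided by the root of F. CPM used TMM library sizes and does not account for gene length, so levels were not compared between genes. A fold against a group at 0 used a floor of 3 counts over the group. Totals of 28092201 to 52171378 counts limit the precision of genes near 0. DESeq2 1.42.0, its size factors, no count filter (genes with at least 1 count), a replicate block, the compared groups alone and each library left out were alternatives; leaving out libraries with cardiac (over 100 CPM) or skeletal muscle (over 1000 CPM) markers was chosen after seeing the data. The fitting was tested on simulated data. Figures used Python 3.11.15 and matplotlib 3.10.9.

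The members and gene lists were chosen with earlier results of these data known. Library values are given for up to 6 called members each way with a mean of at least 1 CPM, for a set list of members in the overexpression table, and for further members chosen after their values were seen (Bmp2, Bmp6, Bmp7, Bmpr1b, Gdf10 and others under 1 CPM, and members shown for comparison in the knock-out and HFD tables); other pathway genes were up to 4 each way by adjusted p per list. RefSeq windows are on GRCm38.p6, not the build of the counts, and were joined by symbol only.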

Additional observations from a re-analysis of the deposited data

Results flagged for a closer look

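A group of 4 members lay wholly on one side of the control libraries in Knock out Runx1 cells and wholly on the other side in white fat of Adipoq-cre:Runx1 KO mice. They were 11.4% of the 35 members tested in both, and 5.07% of all genes tested in both did the same. Other pairs of comparisons were searched in the same way and gave no such member. These set Knock out Runx1 cells beside the HFD pair, the IWAT Runx1 pair beside the HFD pair, and Knock out Runx2 cells beside the IWAT Runx2 pair. The difference between the cell and tissue effects was not tested, and none of the 4 was called in the cells. Inhbb was at log2 0.89 in the cells (4.45 ± 0.903 against 2.40 ± 0.514 CPM, SD, n = 3 libraries each; edgeR adjusted p = 0.28) and -1.70 in the fat (9.52 ± 2.03 against 30.9 ± 10.5 CPM, SD, n = 3 each; edgeR adjusted p = 0.00838). Tgfb3 was at log2 0.64 and -0.48 (adjusted p = 0.415 and 0.11). Tgfbr2 was at log2 0.21 and -0.37 (adjusted p = 0.999 and 0.119). Tgfbr3 was at log2 0.17 and -0.87 (adjusted p = 0.997 and 0.0149).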

How the results depend on the processing

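Of the alternative counts of called members, 96 stayed within 1.5 times the reported count and 13 did not. With the compared groups alone 1 member was called in Knock out Runx1 (Tgfb3) and 1 in Double knock out; without libraries carrying skeletal muscle transcripts 2 were called in the IWAT Runx1 pair, where 1 KO library stood against 2 flox libraries that alone gave the spread, and 13 in the IWAT Runx2 pair; with DESeq2 1 was called for delete Runx2 IDR. Leaving out each library gave 25 to 30 called members in OE Runx1, 30 to 33 in OE Runx2, 13 to 21 between them, 0 to 0 in Knock out Runx1, Knock out Runx2 and HFD, 7 to 10 in Double knock out, 0 to 7 in the IWAT Runx1 pair, 0 to 13 in the IWAT Runx2 pair and 1 to 5 for delete Runx2 IDR. The replicate block called 28, 32 and 18 members in the overexpression comparisons, 0, 0 and 7 in the cell knock-outs, 5 and 0 in the IWAT Runx1 and Runx2 pairs, 0 in HFD and 4 for delete Runx2 IDR. Same-numbered libraries correlated between -0.265 and 0.413 in their deviations. The correlation was over 0.1 for 2 of 3 replicate numbers in the IWAT Runx1 pair and for 2 of 3 in the IWAT Runx2 pair. With so few libraries per group these correlations cannot show whether same-numbered libraries were paired.

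Over all genes, counts moved by over 1.5 times in Knock out Runx1 (59; 188 with DESeq2, 195 with compared groups alone, 32 with the block), Knock out Runx2 (25; 165, 105 and 12), Double knock out (2070; 379 with compared groups alone), the IWAT Runx1 pair (1189; 2265 with DESeq2, 744 with the block, 415 without skeletal muscle libraries), the IWAT Runx2 pair (0; 955 with DESeq2, 6354 without skeletal muscle libraries) and HFD (318; 554 with DESeq2, 206 with the block). Of the alternative member fold changes 1307 kept direction and side of the threshold, 82 lost a call, 18 gained one and 29 changed sign. Uncalled values that changed sign were Ltbp1 between the factors (0.0116 without a filter, 0.00395 with compared groups alone, 0.0334 without cardiac libraries) and, without cardiac libraries, Ltbp2 in OE Runx1 (0.0924), Bmpr1a in OE Runx2 (-0.087), Ltbp4 (0.13) and Smad7 (-0.11) between the factors. Leaving out each library moved Bmpr1a from -0.146 to 0.0501 in OE Runx1 and -0.037 to 0.192 in OE Runx2, Bmpr2 from -0.191 to 0.0765 in OE Runx2, Ltbp2 from -0.148 to 0.0734 and Tgfbr3 from -0.218 to 0.019 in OE Runx1, Tgfb1 from -0.0431 to 0.126 in OE Runx1 and -0.0805 to 0.00447 in OE Runx2, and between the factors Ltbp1 from -0.0887 to 0.0355, Ltbp4 from -0.51 to 0.13, Smad7 from -0.11 to 0.16 and Tgfb1 from -0.163 to 0.0146. The cause of these moves was not tested.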
